A study of Homo sapiens with 12 samples.

Results

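Intergenic HSF1 peaks were the CUT&Tag peaks of Huh7 cells whose summit, the highest point of the peak, lay farther than 1 kb from every annotated gene start and outside every protein-coding gene body. They numbered 1287 of the 7129 HSF1 peaks on chromosomes 1 to 22 and X. The other peaks were 4251 within 1 kb of a gene start, called promoter peaks here, and 1591 inside coding genes away from starts, called intragenic peaks here. The rule used position only. The peak nearest to its edge on the inside lay 1001 bp from the start of MIR4485, and the nearest on the outside 1000 bp from the start of DCK.

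In CUT&Tag, a transposase is tethered by antibodies to a chromatin protein and inserts sequencing adapters into the DNA next to it. Huh7 is a human hepatocellular carcinoma cell line, and the cells used here were of WT genotype and received no treatment. There was 1 HSF1 library and 1 library of H3K27ac, an acetylated histone H3 mark of active promoters and enhancers, and without replicates the spread between cultures is unknown. The HSF1 library held 3604911 tags, of which 2712212 (75.2%) were kept by the peak caller, and the H3K27ac library held 15737890 tags, of which 896393 (5.70%) were kept. Peaks of both libraries were called without a control library, and the control without primary antibody was not analysed here. All intervals below are 95% intervals (Wilson for shares, Newcombe for differences of shares, order statistics for medians) and cover counting error only.

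HSF1 is the transcription factor of the heat shock response and is known to bind heat shock elements, arrays of inverted GAA units, at the promoters of chaperone genes. Enhancers are regulatory regions that act from a distance and hold binding motifs for the factors of their cell type. In hepatocytes these factors include HNF4A, a nuclear receptor that controls many liver genes, the FOXA proteins, which open compact chromatin, and the C/EBP proteins. AP-1, a dimer of FOS and JUN proteins, is common at enhancers of many cell types, and CTCF marks insulators and the anchors of chromatin loops.

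The sequences under 7 intergenic summits are shown because they carry the motifs that the results turn on. Each is the plus strand of hg38, with copies of the HNF4, FOXA, C/EBP, AP-1 and CTCF motifs in capitals, while CCAAT and other letters are not marked. Highest means here the highest fold enrichment among peaks that were not repeat-like, a class defined with the repeats. The peak near ZKSCAN1, a zinc finger factor, was the highest with an HNF4 motif (chr7:100003863-100004063, HNF4 and FOXA motifs). The peak in the apolipoprotein A gene cluster lay nearest to APOA4 (chr11:116808398-116808598, HNF4 and C/EBP motifs). The peak near FGG, the fibrinogen gamma chain gene, is shown at chr4:154617917-154618117 (FOXA and C/EBP motifs). The peak near TGFBR2, which encodes a TGF-beta receptor, was the highest with a FOXA motif (chr3:30258945-30259145). The peak near MRTFA, a coactivator of serum response factor, was the highest single-copy peak with AP-1 motifs (chr22:40652002-40652202), and the peak near TMEM52B was the same for CTCF (chr12:10153383-10153583). The peak near FOXA2 held a CTCF motif and shared bases with an H3K27ac peak (chr20:22491048-22491248).
ZKSCAN1: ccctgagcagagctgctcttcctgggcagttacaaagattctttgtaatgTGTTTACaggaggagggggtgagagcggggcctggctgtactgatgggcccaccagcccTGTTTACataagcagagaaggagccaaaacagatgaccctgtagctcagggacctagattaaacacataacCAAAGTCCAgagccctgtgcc
APOA4: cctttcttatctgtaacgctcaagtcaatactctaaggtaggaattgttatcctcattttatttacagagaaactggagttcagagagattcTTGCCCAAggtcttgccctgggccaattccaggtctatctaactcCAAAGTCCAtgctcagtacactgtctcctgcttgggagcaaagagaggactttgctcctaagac
FGG: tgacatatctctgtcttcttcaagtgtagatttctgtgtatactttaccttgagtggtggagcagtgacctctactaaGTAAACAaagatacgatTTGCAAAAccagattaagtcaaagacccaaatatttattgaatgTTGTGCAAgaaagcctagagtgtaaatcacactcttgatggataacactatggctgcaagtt
TGFBR2: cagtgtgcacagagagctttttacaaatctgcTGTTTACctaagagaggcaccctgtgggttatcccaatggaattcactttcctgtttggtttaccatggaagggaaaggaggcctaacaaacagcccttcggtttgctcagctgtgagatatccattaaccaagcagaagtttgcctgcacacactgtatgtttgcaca
MRTFA: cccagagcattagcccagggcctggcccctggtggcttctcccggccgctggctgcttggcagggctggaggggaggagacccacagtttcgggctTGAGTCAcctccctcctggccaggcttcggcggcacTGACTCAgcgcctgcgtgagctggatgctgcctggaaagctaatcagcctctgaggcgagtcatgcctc
TMEM52B: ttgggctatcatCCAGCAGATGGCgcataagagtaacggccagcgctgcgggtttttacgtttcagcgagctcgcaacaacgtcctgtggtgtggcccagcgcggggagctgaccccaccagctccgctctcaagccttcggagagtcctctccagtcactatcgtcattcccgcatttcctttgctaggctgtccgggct
FOXA2: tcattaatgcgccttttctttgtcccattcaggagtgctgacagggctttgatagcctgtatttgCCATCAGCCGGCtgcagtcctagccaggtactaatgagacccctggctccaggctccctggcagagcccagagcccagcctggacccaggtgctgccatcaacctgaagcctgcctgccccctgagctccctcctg

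A further 3 stretches of 101 bases show what the highest peaks and the repeats looked like. The first 2 are the highest peak by pileup with CATTC units, which build human satellite repeats (nearest coding gene EMB, chr5:49601970-49602070), and the highest by fold enrichment with mitochondrial words (nearest coding gene CNTNAP2, chr7:145997331-145997431). Capitals mark the runs of at least 3 units, or the bases covered by 13-base words that also occur in the mitochondrial genome. The last was the highest of all intergenic peaks, nearest to PROS1 (chr3:93470530-93470630), and is an AT-rich stretch with no marked part.
EMB: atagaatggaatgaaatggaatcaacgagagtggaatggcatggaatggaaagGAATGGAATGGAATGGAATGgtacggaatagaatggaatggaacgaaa
CNTNAP2: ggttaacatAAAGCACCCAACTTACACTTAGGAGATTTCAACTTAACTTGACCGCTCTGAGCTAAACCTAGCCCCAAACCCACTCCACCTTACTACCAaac
PROS1: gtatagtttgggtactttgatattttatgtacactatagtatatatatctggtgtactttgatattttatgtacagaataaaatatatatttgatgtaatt

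The intergenic peaks lay at a wide range of distances from coding genes. The median distance to the nearest start of a coding gene was 62558 bp (55805 to 71329), with a range from 1024 bp to 4918719 bp. To the nearest coding gene body the median distance was shorter, at 35154 bp (30580 to 41043), and the least was 85 bp. Of the 1287 peaks, 171 lay within 10 kb, 567 within 50 kb and 786 within 100 kb of a coding start, while 181 lay over 500 kb and 84 over 1 Mb away. The peak was upstream of its nearest coding start in 812 cases (63.1%, 60.4% to 65.7%). The rule leaves out coding gene bodies, which lie downstream of their starts, so the rule itself favours upstream positions. A long noncoding RNA gene covered the summit of 307 peaks (23.9%, 21.6% to 26.3%). Intragenic peaks were closer to a coding start, with a median of 24621 bp (22555 to 27024). An intragenic summit cannot lie farther from a coding start than its own gene is long, so this difference follows in part from the rule. When every annotated transcript start of a coding gene was counted, the median of the intergenic peaks was 48456 bp.

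The peaks spread over 1012 nearest coding genes, and 856 of these genes had 1 peak. Within 20 kb of another intergenic peak lay 177 peaks, and 23 clusters of at least 3 peaks held 83 peaks. The genes with the most peaks had mostly multi-copy sequence under them. TPTE on chromosome 21 was nearest to 23 peaks, from 171254 to 4918719 bp away, and EMB, which encodes a membrane partner of monocarboxylate transporters, to 14 peaks, from 776182 to 2264735 bp away. CWH43 was nearest to 13 peaks, ZNF33B and WSB1 to 9 each, H3-7 to 8, KCNJ18 to 6, and SHCBP1 to 4. Across these 8 genes, 1 peak near KCNJ18 was single-copy, meaning that at least 90% of its 24-base words occurred once in the assembly. The 3 peaks farthest from a coding start were all near TPTE, and none of their words was single-copy.

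Some clusters lay in single-copy sequence. All 5 peaks near TOMM20, a receptor of the mitochondrial import machinery, were single-copy, at 35379 to 165155 bp from the start and with pileups of 14, 16, 6, 16 and 9 tags. FOXA2, a pioneer factor of the liver and the gut, was nearest to 4 single-copy peaks, with pileups of 18, 15, 16 and 12 tags at 173678, 94307, 73260 and 106609 bp. MYC, the proto-oncogene, was nearest to 5 peaks, of which 4 were single-copy, from 441593 to 819785 bp away. ID1, an inhibitor of basic helix-loop-helix factors named after its values were seen, had 3 single-copy peaks within 8 kb of its start, at 3502, 5449 and 7781 bp. Their pileups of 32, 33 and 27 tags stood on a local background of 7.6, 6.0 and 4.6 tags, so their fold enrichments of 3.84, 4.86 and 5.02 were below the median of the intergenic peaks.

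MYCN, the gene the study followed, was nearest to 3 single-copy intergenic peaks. They lay 174114 bp upstream, 66077 bp downstream and 110613 bp downstream of its start, with pileups of 12, 7 and 6 tags and fold enrichments of 6.91, 6.45 and 5.30. The downstream pair lay inside long noncoding RNA genes, including GACAT3. None of the 3 shared bases with a peak of the H3K27ac CUT&Tag list or held an HNF4, FOXA, C/EBP, AP-1 or CTCF motif. In single-copy intergenic peaks the H3K27ac share was 4.05%, so a missing overlap in 3 peaks says little. The paper defined a super-enhancer, a broad cluster of enhancers, upstream of MYCN by H3K27ac and other chromatin signals. It reported 3 HSF1 CUT&Tag peaks inside that region, HSF1 binding there by ChIP-qPCR, and lower MYCN mRNA after its deletion. Of the intergenic peaks nearest to MYCN, only the one 174114 bp upstream was on that side of the gene. The paper's H3K27ac ChIP-seq was not analysed here, and whether that upstream peak lies in the super-enhancer was not tested. The intergenic peak closest to the start of HSF1 itself was 476168 bp away.

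The intergenic peaks were slightly lower than the other peaks. The deposited pileup, a count of extended tags at the summit, had a median of 11 (10 to 11) against 12 (11 to 12) in intragenic peaks and 14 (13 to 14) in promoter peaks. The median fold enrichment, the pileup over the local background with 1 added to each, was 6.36 (6.25 to 6.45) in intergenic peaks, 6.57 (6.47 to 6.67) in intragenic peaks and 7.14 (7.08 to 7.23) in promoter peaks. The median length was 294 bp (283 to 308). The 10th and 90th percentiles of the intergenic pileups were 7 and 21.4 tags, so most peaks rest on few tags.

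The highest single peak was the one nearest to PROS1, the gene of anticoagulant protein S, at 509423 bp from its start on chromosome 3. Its pileup of 181 tags gave a fold enrichment of 24.9, its summit window was 21.4% GC, and the H3K27ac library had a peak of 115 tags over it. The peak near NID1, a basement membrane protein, had 75 tags and a fold enrichment of 21.2, an H3K27ac peak of 112 tags, and no single-copy word. Among the next 8 peaks that were not repeat-like, the fold enrichments ran from 13.4 near SOX8 to 11.4 near GOSR1. Between them stood the peaks near NFE2L3, a bZIP factor (13.3), SMIM2 (13.1), OPA1, which fuses mitochondrial inner membranes (12.2), GTF2IRD2B (11.9), TGFBR2 (11.7) and MRTFA (11.7). Of the whole 10, NFE2L3, OPA1, TGFBR2 and MRTFA had peaks made of single-copy words only.

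The summit windows, 201 bp wide, were richer in G and C than their surroundings. The median GC content was 53.2% (52.2% to 54.2%) at summits and 42.8% (42.3% to 43.3%) in windows of the same width 5 kb to either side. Few summits lay in CpG-rich sequence, defined as at least 50% GC with an observed to expected CpG ratio of at least 0.6: 193 of 1287 intergenic peaks (13.1% to 17.1%), against 30.9% of intragenic and 82.7% of promoter peaks and 58.9% of all HSF1 peaks. The difference from promoter peaks was -67.7 points (-69.8 to -65.3). Among peaks that were not repeat-like the CpG-rich share was lower farther out, from 23.95% (18.1% to 31.0%) within 10 kb of a coding start to 18.1% (15.1% to 21.4%) at 10 to 100 kb and 8.96% (6.38% to 12.4%) beyond.

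Repeat-like sequence was more common at intergenic peaks than at the others. The label repeat-like was given where 50% or more of the 24-base words in a window occurred at 10 or more places in the assembly, or where the window held telomere units, CATTC units or mitochondrial words. This applied to 209 of 1287 intergenic peaks (16.2%, 14.3% to 18.4%), 3.02% of intragenic peaks and 1.67% of promoter peaks, and to 4.6% of all HSF1 peaks. The difference was 13.2 points from intragenic peaks (11.1 to 15.5) and 14.6 points from promoter peaks (12.6 to 16.7). The windows 5 kb to either side of the intergenic summits were repeat-like more often, in 519 of 2519 (20.6%), and the summits with complete windows (202 of 1280, 15.8%) stood 4.82 points below them (interval of the difference -7.32 to -2.22).

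The repeat-like peaks fell into 4 classes. Telomere units, in runs of at least 3 copies of TTAGGG on either strand, were found in 22 peaks on 16 chromosomes, 18 of them within 20 kb of a chromosome end, with a median of 32 tags and a range from 7 to 100. The highest were those near ANHX, PARD6G, RABL2B, CHAMP1 and DUX4, with fold enrichments of 22.7, 22.2, 21.6, 21.0 and 20.1. CATTC units were found in 36 peaks on 9 chromosomes, with 10 on chromosome 4 and 7 on chromosome 10, a median of 23.5 tags and a median local background of 2.90 tags. Mitochondrial words were found in 25 peaks on 14 chromosomes, with a median of 20 tags and a median of 60.7% single-copy words. The other 126 held repeated words, with a median of 10 tags.

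Overlap with an H3K27ac peak, by 1 bp or more, was found for 140 of 1287 intergenic peaks (10.9%, 9.29% to 12.7%), beside 8.56% of all HSF1 peaks. This was 5.10 points above intragenic peaks (3.07 to 7.19) and 1.99 points above promoter peaks (0.166 to 3.98). Repeat-like peaks made up 73 of the 140 (52.1%, 43.9% to 60.2%). The H3K27ac share was 21 of 22 in peaks with telomere units, 22 of 36 with CATTC units, 6 of 25 with mitochondrial words and 24 of 126 with repeated words, and 67 of 1078 (6.22%, 4.92% to 7.82%) in the rest. At the telomere peaks the median H3K27ac pileup was 57 tags, against 10 tags at the peaks that were not repeat-like.

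Without the repeat-like peaks of each class the order of intergenic and promoter peaks turned. The H3K27ac share was then 6.22% in intergenic, 5.06% in intragenic and 8.59% in promoter peaks, a difference from promoter peaks of -2.37 points (-3.94 to -0.577). The difference from intragenic peaks, 1.16 points, had an interval from -0.609 to 3.04. In single-copy peaks the share was 33 of 815 intergenic (4.05%, 2.90% to 5.63%), 4.204% of intragenic and 8.53% of promoter peaks, with a difference from promoter peaks of -4.48 points (-5.96 to -2.68). Peak height moved with the overlap too. In single-copy intergenic peaks the H3K27ac share was 2.17% up to 8 tags (5 of 230), 0.806% at over 8 to 11 tags (2 of 248), 5.05% at over 11 to 15 tags (10 of 198), 10.3% at over 15 to 22 tags (12 of 117) and 18.2% above (4 of 22, 7.31% to 38.5%). In single-copy promoter peaks it was 4.67%, 5.78%, 7.06%, 10.5% and 15.03% over the same ranges. The intergenic share was the lower one up to 22 tags, though by little at over 15 to 22 tags. The intervals of both classes were apart only at over 8 to 11 tags (0.221% to 2.89% against 4.43% to 7.52%) and overlapped in all other ranges.

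The 1147 intergenic peaks without overlap were far from any H3K27ac peak, at a median of 641352 bp (579414 to 709239), and 35 of them had an H3K27ac summit within 10 kb. The H3K27ac list was short, with 1291 peaks on the same chromosomes, of which 395 were intergenic by the same rule, so a missing overlap says little at this depth. The highest overlapping peaks that were not repeat-like, after those near PROS1, NID1, SOX8 and SMIM2, were 2 near TPTE and those near COL21A1, a collagen, PTGIS, the prostacyclin synthase, SPRY2, an inhibitor of receptor tyrosine kinase signalling, and ZKSCAN1. Of these 10, the peaks near SPRY2 and ZKSCAN1 were single-copy, with fold enrichments of 10.6 and 10.2 for HSF1 and of 6.16 and 9.15 for H3K27ac.

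Motifs of liver factors were counted without mismatch on both strands within 100 bp of the summit, and in windows of the same width 5 kb to either side. The HNF4 motif CAAAGTCCA was found at 21 of 1280 intergenic summits with complete windows (1.64%, 1.08% to 2.50%) and in 5 of 2519 flanks (0.198%), a difference of 1.44 points (0.818 to 2.30). Over all HSF1 peaks its share was 0.968%. The FOXA motif TGTTTAC was found at 123 summits (9.61%, 8.11% to 11.3%) and in 2.54% of flanks, a difference of 7.07 points (5.42 to 8.89), beside 4.36% of all HSF1 peaks. The C/EBP motif TTGCNNAA was found at 109 summits (8.52%, 7.11% to 10.2%) and in 8.69% of flanks, beside 5.75% of all HSF1 peaks, and the difference of -0.178 points had an interval from -2.005 to 1.78. In windows of 40% to 50% GC, however, the C/EBP share was 13.7% at summits and 8.62% in flanks, a difference of 5.08 points (1.45 to 9.11).

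AP-1 and CTCF motifs were also above their flanks. The AP-1 motif TGANTCA was found at 152 summits (11.9%, 10.2% to 13.8%) and in 5.92% of flanks, a difference of 5.96 points (4.03 to 8.03), beside 6.8% of all HSF1 peaks. The CTCF core, CCA, AG and GGC in this order with 2 free positions between each, was found at 69 summits (5.39%, 4.28% to 6.77%) and in 13 of 2519 flanks (0.516%), a difference of 4.87 points (3.71 to 6.27), beside 3.16% of all HSF1 peaks. All 69 peaks were outside repeat-like sequence, and 60 were single-copy. Leaving out the repeat-like windows gave differences of 1.73 points for HNF4, 5.67 for FOXA, 7.44 for AP-1 and 5.91 for CTCF, all with intervals above 0. In windows of 40% to 50% GC the differences were 2.71 points for HNF4 (1.32 to 4.84), 6.59 for FOXA (3.77 to 9.95) and 9.19 for AP-1 (5.51 to 13.3), while that for CTCF was smaller, at 2.14 points (0.639 to 4.30). The FOXA motif was carried by 28 of the 126 peaks with repeated words (22.2%) and by none of those with telomere or CATTC units.

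The heat shock element and CCAAT were not above the flanks over all windows. The heat shock element, 3 inverted GAA units in a row (GAA, TTC and GAA, or TTC, GAA and TTC, with 2 free positions between each), was found at 1 intergenic summit (0.0781%, 0.0138% to 0.441%) and in 7 flanks, a difference of -0.200 points (-0.501 to 0.191), beside 0.196% of all HSF1 peaks. That summit was repeat-like, and 0 of the 1078 other peaks held the element, with an upper Wilson bound of 0.355%. CCAAT, the site of the trimeric factor NF-Y, was found at 274 summits (21.4%, 19.2% to 23.7%) and in 26.3% of flanks, a difference of -4.91 points (-7.70 to -2.04), beside 30.7% of all HSF1 peaks. In windows of 40% to 50% GC this difference was 3.83 points, with an interval from -1.32 to 9.19.

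Compared with promoter peaks, intergenic peaks held the HNF4, FOXA, C/EBP, AP-1 and CTCF motifs more often. The difference was 1.37 points for HNF4 (0.775 to 2.23), 7.84 for FOXA (6.29 to 9.60), 4.42 for C/EBP (2.89 to 6.16), 8.80 for AP-1 (7.06 to 10.7) and 2.99 for CTCF (1.77 to 4.42), and -14.98 for CCAAT (-17.6 to -12.3). Promoter summits, with a median GC content of 66.2%, were themselves below their flanks for FOXA (1.72% against 2.80%), C/EBP (4.05% against 9.48%) and AP-1 (3.01% against 5.35%). For CTCF they were above their flanks (2.38% against 0.565%), and for HNF4 the difference of 0.0705 points had an interval from -0.0932 to 0.287. Compared with intragenic peaks, FOXA was 2.33 points higher (0.301 to 4.42) and CTCF 1.90 points higher (0.405 to 3.49), while the intervals for HNF4, C/EBP, AP-1, the heat shock element and CCAAT held 0. In single-copy peaks the CTCF difference from intragenic peaks was 3.68 points (1.71 to 5.87), and the FOXA difference of 1.48 points had an interval from -0.662 to 3.799. Intragenic summits were above their own flanks too, so that trait is not particular to intergenic peaks. Their differences were 2.04 points for HNF4, 4.24 for FOXA, 7.48 for AP-1 and 2.51 for CTCF, all with intervals above 0.

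A GC box, other letters for forkhead factors and the main AP-1 letters were searched after the motif results were seen. None of them was compared in windows of matched GC content. The GC box holds only G and C, and the median GC content was 53.2% at summits and 42.8% in flanks. How far composition accounts for its difference from flanks was not tested. The GC box GGGCGG, the site of SP1 and related factors, was found at 207 intergenic summits (16.2%, 14.3% to 18.3%) and in 4.25% of flanks, a difference of 11.9 points (9.82 to 14.2), beside 48.2% of all HSF1 peaks. Intergenic peaks held it 48.0 points less often than promoter peaks (-50.4 to -45.4 as a signed difference) and 15.9 points less often than intragenic ones (-18.9 to -12.8). Its share in peaks that were not repeat-like was 26.3% within 10 kb of a coding start, 19.3% at 10 to 100 kb and 12.4% beyond. The forkhead letters TGTTTGC were found at 8.20% of summits and 3.02% of flanks, beside 4.18% of all HSF1 peaks, and TGACTCA, which is contained in the AP-1 motif, at 9.92% and 3.45%, beside 5.6% of all HSF1 peaks.

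The CTCF copies lay closest to the summit. In the peaks that were not repeat-like, the median distance from the summit to the nearest copy was 22.5 bp for CTCF, and 31 of the 69 peaks had it within 20 bp. The median was 39.5 bp for FOXA, 38 bp for AP-1, 40.5 bp for C/EBP, 41 bp for HNF4 and 38.5 bp for CCAAT. The CTCF share was 7.61% (5.70% to 10.1%) at 10 to 100 kb from a coding start and 3.76% (2.21% to 6.32%) beyond 100 kb. H3K27ac was found at 1 of the 69 CTCF peaks (1.45%, 0.256% to 7.76%), the one near FOXA2, with 15 HSF1 and 8 H3K27ac tags. Among the 1009 peaks without the motif it was found at 66 (6.54%, 5.17% to 8.24%), and the intervals overlapped. Of the 69, 60 were single-copy, and the H3K27ac share of all single-copy intergenic peaks was 4.05%.

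The 21 peaks with an HNF4 motif lay on 15 chromosomes, and 18 were single-copy. Their pileups ran from 5 to 22 tags with a median of 10, their fold enrichments from 4.27 to 10.2, and their distances to a coding start from 6350 to 671569 bp with a median of 55978 bp. A FOXA motif was present in 5 of them (23.8%, 10.6% to 45.1%), against 8.42% of the peaks without HNF4, a difference of 15.4 points (2.08 to 36.7). These were the peaks near ZKSCAN1, MARCKS, COL12A1, KLF9 and AKR1E2, named after their values were seen. The other motif pairs compared had intervals that spanned both signs. The differences were -2.16 points for FOXA with AP-1 (-5.85 to 3.39) and 0.757 for AP-1 with HNF4 (-8.80 to 21.2). With CTCF they were -4.67 points for FOXA (-8.12 to 3.17) and -5.18 for AP-1 (-10.4 to 4.04). H3K27ac overlapped 3 of the 21 (14.3%, 4.98% to 34.6%), those near ZKSCAN1, MARCKS and DUSP10. Without the HNF4 motif it overlapped 64 of 1057 peaks (6.05%, 4.77% to 7.66%), and the intervals overlapped. The next highest after ZKSCAN1 were near EGFLAM and TM4SF5, with 12 and 11 tags.

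By fold enrichment and outside repeat-like sequence, the highest FOXA peaks included those near TGFBR2, with 25 tags at 347556 bp, and near COL21A1, with 22 tags at 5628 bp and 48.3% single-copy words. The C/EBP motif led with peaks near ZFHX4, LYPLAL1 and ARID1B, with fold enrichments of 11.4, 10.7 and 9.72. The peak near LYPLAL1, a lysophospholipase-like gene, also held an AP-1 motif and lay 84790 bp from the start with 15 tags. The highest AP-1 peaks were those near NID1, MRTFA and LYPLAL1, and the highest CTCF peaks those near NAPG, TMEM52B and CDON, with 16, 12 and 20 tags. The peak near NAPG had no single-copy word.

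Genes of 4 liver lists (plasma proteins, lipoproteins, hepatocyte transcription factors and liver metabolism) had an intergenic peak within 100 kb in 25 of 143 cases (17.5%), beside 1942 of 19970 coding genes (9.72%). The lists were chosen with earlier results of these data known, and the difference was not tested. Neighbouring genes shared peaks, so that 19 different peaks lay within 100 kb of the 25 genes, and 17 of them were the nearest to a listed gene. Of the 19 peaks, 17 were single-copy, 1 shared bases with an H3K27ac peak (the one with a CTCF motif near FOXA2), and 6 held at least 1 of the HNF4, FOXA, C/EBP, AP-1 and CTCF motifs. Their pileups ran from 6 to 18 tags with a median of 10, and their fold enrichments from 4.26 to 7.84.

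Plasma protein genes counted 7 of 55 (12.7%) over 6 peaks, and the nearest peak of each gene is given. The peak 2579 bp upstream of ITIH2, a hyaluronan-binding inhibitor chain, had 10 tags, and the peak 3515 bp upstream of CP, the copper carrier ceruloplasmin, also had 10. The peak 4223 bp upstream of AMBP had 18 tags on a local background of 3.46 tags. The 3 fibrinogen genes shared 1 peak of 14 tags, which lay 5050 bp upstream of FGG, 27275 bp upstream of FGA and 55006 bp downstream of the FGB start and held a FOXA and 2 C/EBP motifs. The peak 33439 bp upstream of C8A, a chain of complement C8, had 7 tags.

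Lipoprotein genes counted 9 of 20, but over 3 peaks. A peak of 10 tags on chromosome 19 lay 6171 bp upstream of APOC4, 9969 bp upstream of APOC2, 21819 bp past the start of APOC1 and 30275 bp past that of APOE, the main ligand for remnant uptake. A peak of 6 tags and a fold enrichment of 4.27 on chromosome 11 lay 14806 bp from APOA4, 16078 bp from APOA5, 21208 bp from APOC3 and 29124 bp from APOA1, the main protein of high-density lipoprotein. This low peak held HNF4, C/EBP and CCAAT motifs. The peak near SCARB1, the high-density lipoprotein receptor, lay 57395 bp upstream with 11 tags.

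Hepatocyte transcription factors counted 6 of 28 (21.4%) over 7 peaks, within 100 kb of KLF15, PPARA, NR1H4, GATA4, NR0B2 and FOXA2, which had 2 of the 7. The peak upstream of PPARA, the fatty acid receptor, had 16 tags at 33877 bp, and that of NR1H4, the bile acid receptor FXR, 8 tags at 36184 bp. The peak 48855 bp past the start of NR0B2, the repressor SHP, had 15 tags and lay nearer to SFN, 1971 bp away. KLF15 had a peak of 8 tags with a FOXA motif 31943 bp upstream. Liver metabolism genes counted 3 of 40 (7.50%): GSTA1, a glutathione transferase, with 8 tags at 11693 bp, AKR1C1, an aldo-keto reductase, with 8 tags and an AP-1 motif at 15341 bp, and CYP1A2, a drug-metabolising cytochrome P450, with 13 tags at 17704 bp.

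Heat shock and chaperone genes counted 3 of 33 (9.09%), close to the 9.72% of all coding genes. Among them were HSPA6, an inducible HSP70, and HSPB1, the small heat shock protein HSP27, at 69791 and 77451 bp with 19 and 10 tags. The peak near HSPA6 had no single-copy word, and none of the 3 held a heat shock element. AP-1 and MYC family genes, listed with related cell cycle genes, counted 5 of 28 (17.9%), with MAFK, CCNE1, CCND1, MYCN and FOS. The peak 9777 bp upstream of MAFK, a small MAF protein, had 22 tags, that near CCNE1 19 tags at 32905 bp, that near CCND1 13 tags at 64978 bp, and that near FOS 12 tags at 82119 bp. None of these 5 shared bases with an H3K27ac peak.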

How the data were processed

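HSF1 and H3K27ac CUT&Tag peak lists of untreated Huh7 cells were used, 1 library each, and the other 10 of 12 samples were not analysed here, among them ChIP-seq lists on hg19. The authors called each list with MACS 2.1.4 on hg38 at a p-value of 1e-05, without a control library, after removal of duplicate tags, with tags shifted by -100 bp and extended to 200 bp. Bowtie, Picard and deepTools are also named in the submitters' processing notes. The deposited pileup is a signal in tags, the deposited fold enrichment a ratio over a local background drawn from up to 10 kb, and the caller's Poisson model gave the deposited -log10 p-value and, unexplained, a -log10 q-value. The headers say that q-values were not calculated, so the q-value column served as a filter only.

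Summits were placed against GENCODE release 44 (outermost gene starts of every type, bodies of coding genes). The local background was recovered from pileup and fold enrichment. Words of 24 bases were counted over all contigs of hg38 on both strands. A peak was mitochondrial-like with at least 20% of its 13-base words in the mitochondrial genome. Motifs searched were those spelled out with the results, and TGACTCA is part of TGANTCA. Replicates, and with them tests across samples, were lacking, and intervals cover counting error only. Named genes were set by rule: nearest coding genes of the highest peaks (10 not repeat-like, 5 repeat-like, 10 with H3K27ac, 3 per motif), of the 3 farthest peaks, the 10 genes nearest to the most peaks, listed genes within 100 kb, and MYCN and HSF1. The members and lists were chosen with earlier results of these data known. A nearest gene is a position, not a target. A listed gene and a sequence are not reported here. Python 3.11.15, pysam 0.24.0, pandas 2.3.3, numba 0.67.0, scipy 1.17.1, matplotlib 3.10.9 and numpy 2.4.6 were used, and the functions were tested on simulated data with planted answers.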

Additional observations from a re-analysis of the deposited data

How the results depend on the processing

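Of 67 alternatives over 14 results, 11 moved a distance, share or fold enrichment out of its interval and 4 turned the sign of a difference whose interval excluded 0 before or after. The other 52 kept counts within 1.5 times, shares and medians within their intervals, and differences on their side of 0 or with intervals that held 0 both times, as for C/EBP in 50-bp windows (1.03 points) and the heat shock element in windows of 40% to 50% GC (0.131 points). Among these, differences still moved in size. HNF4 was 0.780 points in 50-bp windows, 2.71 at 40% to 50% GC and 2.81 with wider letters, AP-1 9.19 at that GC content and 10.2 in single-copy peaks, and CTCF 2.14 at that GC content and 3.16 with stricter letters. The H3K27ac difference from promoter peaks was 3.01 points with overlap of at least 50%, 4.27 with the q filter and 3.05 at 5 kb from every gene start. The median distance to a coding start was 48456 bp with every coding transcript start and 49332.5 bp without repeat-like peaks. The H3K27ac share was 7.69% with overlap of at least 50% of the HSF1 peak, 13.8% when HSF1 peaks needed a deposited -log10 q of 5, 6.29% when H3K27ac peaks did, 6.22% without repeat-like peaks and 4.05% in single-copy peaks. Its difference from promoter peaks turned from 1.99 to -2.37 points without repeat-like peaks and to -4.48 points in single-copy peaks. In windows of 40% to 50% GC the C/EBP difference turned to 5.08 points and the CCAAT difference to 3.83 points. The q filter also moved the median fold enrichment to 6.85 and the repeat-like share to 19.4%, and that share was 19.6% with words at 5 or more places and 11.5% when 80% of words had to be repeated. The single-copy restriction, the differences from promoter peaks under alternatives, wider HNF4 letters, stricter CTCF letters and the count without alternate contigs were chosen after seeing the data. No paired analysis was possible because each condition had 1 library. The H3K27ac library kept 5.70% of its tags, so its list limits what an absent overlap can say.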

Other observations

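The intergenic peaks were spread unevenly over the chromosomes. They made up 36.4% of the HSF1 peaks on chromosome 21, 28.7% on chromosome 13 and 7.51% on chromosome 19. Without repeat-like peaks there were 0.792 per Mb on chromosome 21, where 21 of the 37 were nearest to TPTE and none of these was single-copy, 0.610 per Mb on chromosome 22, and 0.0897 per Mb on chromosome X. Among peaks that were not repeat-like, 305 of 1078 (28.3%, 25.7% to 31.1%) held an HNF4, FOXA, AP-1 or CTCF motif, and 31 of these (10.2%) were CpG-rich, against 142 of the other 773 (18.4%), a difference of -8.21 points (-12.3 to -3.53).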
